A study of Mus musculus with 20 samples.

Results

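Fibroblast growth factor (FGF) genes were followed across the cell classes of the mouse basolateral amygdala (BLA) and across chronic corticosterone and ketamine treatment. The genes were taken by symbol from the gene table of the count matrices and are 9 of the 31053 genes listed there. They comprise 3 secreted ligands (Fgf1, Fgf2 and Fgf9), 3 intracellular FGFs (Fgf12, Fgf13 and Fgf14) and 3 receptors (Fgfr1, Fgfr2 and Fgfr3). Secreted FGFs bind receptor tyrosine kinases at the cell surface together with heparan sulfate chains, and the activated receptors signal through the adaptor Frs2 to the MAP kinase cascade and raise feedback genes such as the Sprouty family. Intracellular FGFs share the FGF fold but are not secreted through the usual route, and they are best known as partners of voltage-gated sodium channels in neurons. In the adult brain, FGF receptors are known from astrocytes and from cells of the oligodendrocyte lineage.

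The BLA libraries came from male C57BL/6 mice, 1 mouse per library, labelled as 13 weeks of age. The mice had drunk either corticosterone (CORT) at 35 µg/ml or the vehicle 2-hydroxypropyl cyclodextrin (BCD) for 6 weeks, as the labels give it. Part of the study's methods describes plain drinking water for the controls, so what the BCD groups drank is uncertain. They then received an intraperitoneal injection of ketamine (Ket) at 10 mg/kg or saline (Sal), and tissue was taken 24 h later. There were 2 BCD/Sal mice (9901 and 9947), 3 BCD/Ket mice (9946, 9949 and 9986), 2 CORT/Sal mice (9969 and 9970) and 3 CORT/Ket mice (9967, 9968 and 9971). Corticosterone in the drinking water serves as a model of chronic stress, and every mouse had a single injection. Prefrontal cortex samples of the same series were not analysed here.

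The 10 libraries held 626 to 4604 barcodes and 811628 to 7281768 unique molecular identifiers (UMIs, each a counted RNA molecule). Barcodes within the study's limit on mitochondrial UMIs (the highest share kept was 12.41% in mouse 9967 and slightly more in the other libraries) and with at least 200 genes were kept, which left 135 to 2397 per library and 8305 in all. The library of CORT/Sal mouse 9970 stood apart, because 97.1% of its barcodes were kept, against 16.8% to 31.0% in the others, and nearly all of them formed an unnamed cluster with no other library in any number. The libraries of mice 9946, 9947 and 9967 held fewer than 4 microglia each, and 92.9% to 96.3% of their astrocytes lay in the shallower of the astrocyte clusters, against 25.7% to 46.5% in the other libraries with astrocytes. Of 8280 different barcode sequences kept, 21 occurred in more than 1 library. Clusters were named from fixed marker lists, with the FGF genes and the listed pathway genes left out of the clustering. The 15 astrocyte markers summed to between 18782 and 36928 counts per 1000000 UMIs (CPM) in the astrocytes of each library and to between 79.0 and 1486 CPM in oligodendrocytes, while the 14 oligodendrocyte markers summed to between 68535 and 88475 CPM in oligodendrocytes and to at most 524.3 CPM in astrocytes.

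Levels are given as CPM of a cell class in a library, in libraries with at least 10 cells of that class. The 9 classes were astrocytes (1369 cells, 9 libraries), oligodendrocytes (381 cells, 8 libraries), oligodendrocyte precursor cells (401 cells, 6 libraries), excitatory neurons (1184 cells, 10 libraries), inhibitory neurons (269 cells, 8 libraries), endothelial cells (1091 cells, 10 libraries), pericytes or mural cells (269 cells, 7 libraries), microglia (857 cells, 6 libraries) and other immune cells (52 cells, 4 libraries). The class with the highest mean is called the leading class, and it was picked from the same levels that are then compared. Mean levels in microglia, which lie outside the neural lineage, were between 0 and 14.97 CPM and are set beside the others. How much of these levels came from free RNA was not tested, and microglia gave values in 6 libraries only.

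The receptors had the sharpest class pattern. Fgfr3 was highest in astrocytes, Fgfr1 in astrocytes and then in oligodendrocyte precursor cells, and Fgfr2 in oligodendrocytes and then in astrocytes. For the receptors with the widest gaps between classes, the promoters listed by RefSeq are given here (250 bases before to 50 bases after the start). They are on build GRCm38.p6, not the mm9 build that the study names for its counts. GC boxes (GGGCGG on either strand) are in capitals.
Fgfr3 promoter, chr5:33721474-33721773, plus strand: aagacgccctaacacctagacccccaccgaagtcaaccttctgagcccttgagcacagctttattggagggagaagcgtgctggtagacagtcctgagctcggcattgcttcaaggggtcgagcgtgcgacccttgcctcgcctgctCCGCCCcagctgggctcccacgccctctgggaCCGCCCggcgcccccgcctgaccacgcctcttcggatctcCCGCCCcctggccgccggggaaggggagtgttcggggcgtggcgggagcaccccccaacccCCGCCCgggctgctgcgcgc
Fgfr3 promoter, chr5:33722056-33722355, plus strand: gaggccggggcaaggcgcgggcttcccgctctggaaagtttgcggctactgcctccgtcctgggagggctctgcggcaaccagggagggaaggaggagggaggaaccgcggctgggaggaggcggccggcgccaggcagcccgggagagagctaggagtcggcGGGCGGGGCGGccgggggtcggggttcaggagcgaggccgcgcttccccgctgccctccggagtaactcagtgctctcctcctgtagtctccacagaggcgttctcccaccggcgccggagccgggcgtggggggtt
Fgfr2 promoter, chr7:130266759-130267058, minus strand: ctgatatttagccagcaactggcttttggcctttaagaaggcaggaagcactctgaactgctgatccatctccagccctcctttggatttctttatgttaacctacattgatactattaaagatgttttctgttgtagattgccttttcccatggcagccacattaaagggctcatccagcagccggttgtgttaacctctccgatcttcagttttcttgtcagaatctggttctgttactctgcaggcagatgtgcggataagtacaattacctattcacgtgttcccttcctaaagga
The upstream and downstream Fgfr3 promoters had 4 and 2 GC boxes, with overlapping matches counted, and 26 and 30 CpG dinucleotides. Fgfr2 had 0 GC boxes and 4 CpG dinucleotides. Over all 32851 promoters of the table, 35.7% held at least 1 GC box and the median number of CpG dinucleotides was 7. The letters TATAAA, which 13.6% of all promoters held on either strand, were in none of the 3 windows shown. These matches describe the sequence and were not related to the levels.

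Fgfr3 encodes the FGF receptor best known from astrocytes and their precursors. On the mm9 assembly, the annotation placed it at chr5:34064373-34079716 on the plus strand, with no overlapping gene. In astrocytes its level was 902 ± 176 CPM (SD, n = 9 libraries), from 695 to 1258 CPM, and it rested on 2296 UMIs. Oligodendrocyte precursor cells came next with 55.6 ± 26.1 CPM (n = 6), then endothelial cells with 13.2 ± 11.1 CPM (n = 10). Every astrocyte library lay above every library of every other class. The edgeR quasi-likelihood fit over all classes, with the library as a term, gave astrocytes over oligodendrocyte precursor cells a log2 difference of 4.45 (SE 0.24, adjusted p = 1.58e-42), with astrocytes higher in 6 of 6 shared libraries. Of the 9279 genes in this fit, 37.4% differed between astrocytes and oligodendrocyte precursor cells. The step from oligodendrocyte precursor cells to endothelial cells was smaller, at 1.25 (SE 0.38, adjusted p = 0.00251), where 56.8% of genes differed. Excitatory neurons, with 11.3 ± 12.9 CPM, held astrocyte markers summing to between 648 and 1977 CPM, and the part of these in their Fgfr3 level was not tested. Their pooled Fgfr3 level was 24.5 CPM in the larger excitatory cluster (37 UMIs) and 2.00 CPM in the smaller one (3 UMIs).

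Fgfr1 encodes the FGF receptor found most widely across tissues and lies at chr8:26624126-26686186 on the plus strand (mm9). Its level was 303 ± 55.2 CPM in astrocytes (n = 9), from 224 to 419 CPM, and 127 ± 41.6 CPM in oligodendrocyte precursor cells (n = 6), from 68.1 to 179 CPM. The astrocyte and precursor values did not overlap. The difference was 1.70 on the log2 scale (SE 0.22, adjusted p = 3.54e-11, edgeR), with astrocytes higher in 6 of 6 libraries. Other immune cells (77.9 CPM, 11 UMIs in all) and pericytes or mural cells (57.9 ± 41.7 CPM) followed. The step from precursor cells to other immune cells did not pass the test (0.51, SE 0.54, adjusted p = 0.477), in a pair of classes between which 37.8% of genes differed. Fgfr1 was also counted in neurons, at 46.4 ± 28.3 CPM in inhibitory and 20.7 ± 19.7 CPM in excitatory neurons, against 2.88 CPM in microglia. Within excitatory neurons, its pooled level was 46.4 CPM in the larger cluster (70 UMIs) and 13.3 CPM in the smaller one (20 UMIs). The larger cluster was named from 3 markers, the fewest that the naming rule allows, and 45.0% of its cells came from 1 library.

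Fgfr2 encodes a receptor that mature oligodendrocytes are known to carry. Its annotated mm9 span, chr7:137305965-140315033 on the minus strand, is 3009.1 kb long and holds 41 other genes, which looks like an error of the annotation, so these coordinates may not be those of the gene's transcripts. Whether the counts used the same span is not known. The level in oligodendrocytes was 396 ± 70.2 CPM (n = 8), from 305 to 510 CPM, and in astrocytes 89.6 ± 19.8 CPM (n = 9), from 56.7 to 115 CPM. These ranges were well apart, and oligodendrocytes were higher in 8 of 8 shared libraries (log2 difference 1.96, SE 0.17, adjusted p = 2.22e-22, edgeR). Between these classes 49.5% of all genes differed. Astrocytes in turn exceeded excitatory neurons (5.78 ± 5.64 CPM) by 3.83 (SE 0.29, adjusted p = 7.17e-28) in 9 of 9 libraries, where 62% of genes differed. The excitatory Fgfr2 counts were 14 UMIs in the larger cluster (9.29 CPM pooled) and 3 UMIs in the smaller one (2.00 CPM). In oligodendrocyte precursor cells, Fgfr2 had 0 UMIs in 6 libraries and 739635 UMIs. A floor of 3 counts over these libraries together, 4.06 CPM, lay 92.8-fold below the 376 CPM pooled over oligodendrocytes. The floor covers counting error in precursor cells only, not that of the oligodendrocyte level.

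**Figure D1:**
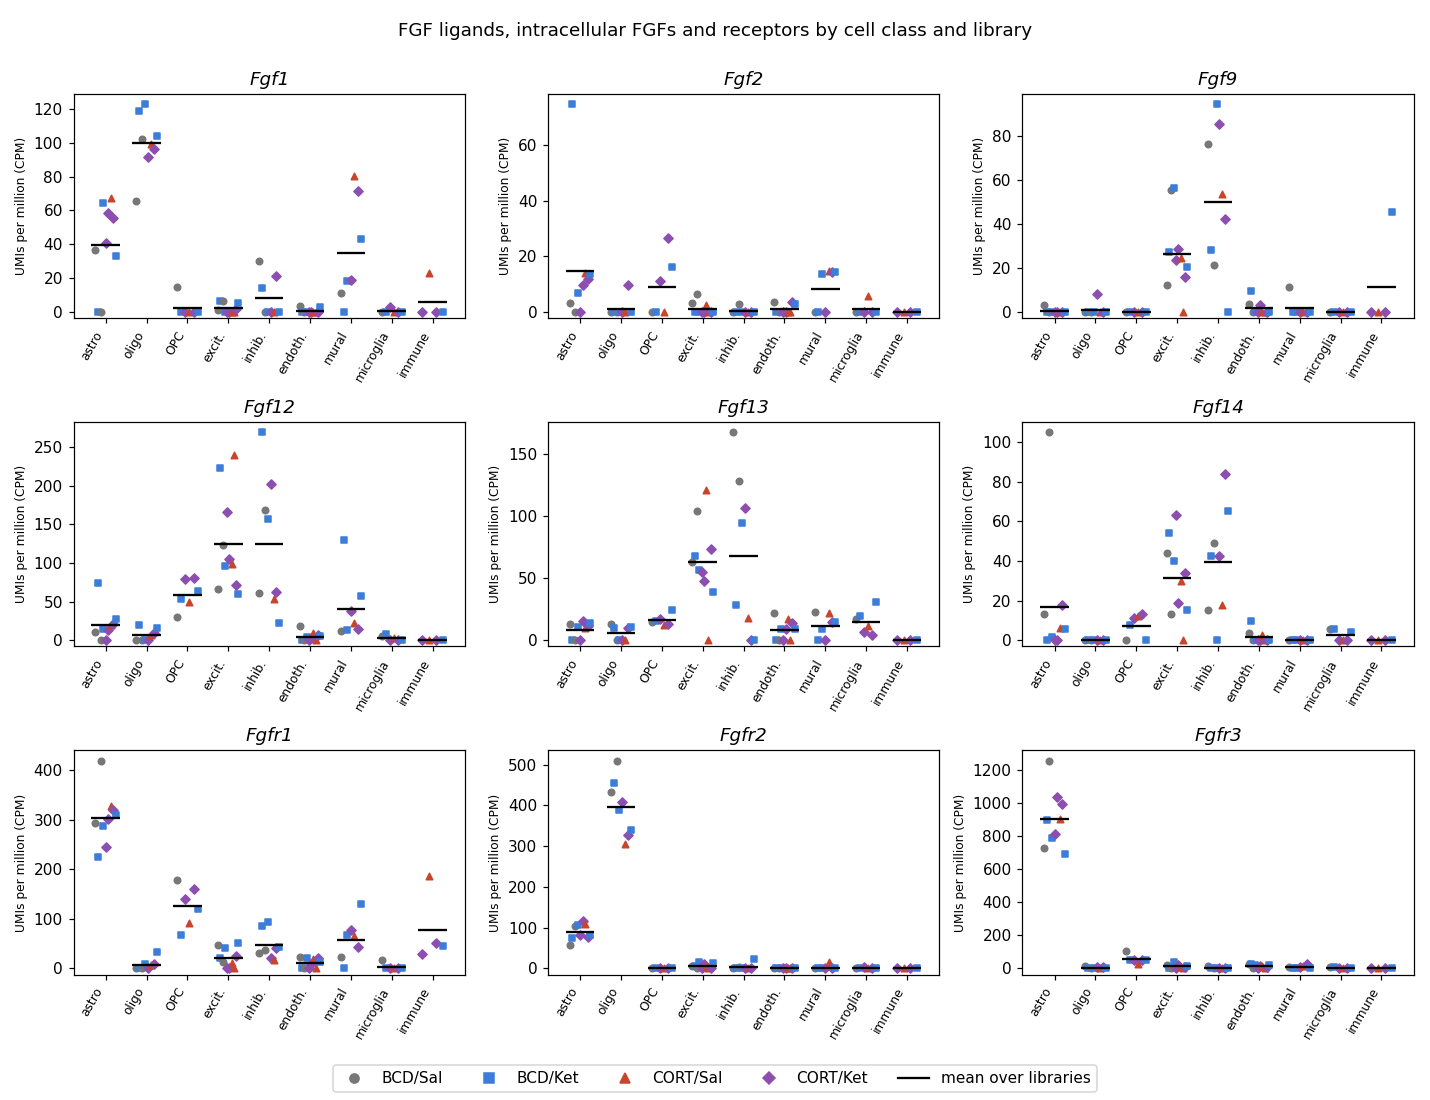
CPM (linear axes from 0) of each FGF gene by cell class, with a point for each library with at least 10 cells of the class, colour and shape for the treatment group and a black line for the mean. Fgfr3 in astrocytes lay between 695 and 1258 CPM and Fgfr2 in oligodendrocytes between 305 and 510 CPM, above all other classes, while Fgf9, Fgf12, Fgf13 and Fgf14 spread widely in both neuron classes.

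Among the secreted ligands, Fgf1 led in oligodendrocytes, Fgf2 was scarce in every class, and Fgf9, among the named classes, was counted in neurons and almost nowhere else. Fgf1, or acidic FGF, can bind all of the FGF receptors. It lies on chromosome 18, minus strand, overlapping Arhgap26 on the other strand. Its levels in oligodendrocytes were 65.8 and 102 CPM in BCD/Sal mice 9901 and 9947, 119, 123 and 104 CPM in BCD/Ket mice 9946, 9949 and 9986, 99.5 CPM in CORT/Sal mouse 9969, and 91.8 and 96.0 CPM in CORT/Ket mice 9968 and 9971. The spread was narrow, with a mean of 100.1 ± 17.5 CPM (n = 8) from 105 UMIs. Astrocytes had 39.6 ± 25.5 CPM (n = 9), with 0 UMIs in mice 9946 and 9947, whose astrocyte counts were small. Oligodendrocytes were higher than astrocytes in 8 of 8 libraries (log2 difference 0.90, SE 0.25, adjusted p = 0.00115, edgeR). Astrocytes and pericytes or mural cells (34.8 ± 31.0 CPM, n = 7) differed in the same fit by 0.82 (SE 0.34, adjusted p = 0.0325), yet astrocytes were higher in only 3 of 7 libraries, and 50.1% of all genes differed in that pair. The mural level was uneven, from 0 to 80.5 CPM, with 11 of its 26 UMIs in mouse 9969. The other classes had at most 8.20 CPM.

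Fgf2, or basic FGF, is a mitogen that astrocytes are known to make. It lies at chr3:37211441-37304299 on the plus strand (mm9), with Nudt6 and Cetn4 annotated on the other strand. Only 27 UMIs were found in astrocytes, at a mean of 14.9 ± 23.1 CPM (n = 9). That mean was raised by BCD/Ket mouse 9946, where 1 UMI in a small astrocyte pool gave 74.7 CPM, and without this library it was 7.43 CPM. Oligodendrocyte precursor cells had 8.99 ± 11.04 CPM (6 UMIs) and pericytes or mural cells 8.13 ± 7.61 CPM (7 UMIs). Fgf2 did not pass the filter on low counts, so the order of these classes was not tested and could not be resolved at this depth.

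Fgf9 encodes a ligand known from neurons and lies at chr14:58689384-58731174 on the plus strand (mm9). In inhibitory neurons its level was 50.1 ± 33.3 CPM (n = 8, 30 UMIs), from 0 to 94.2 CPM, and in excitatory neurons 26.4 ± 17.6 CPM (n = 10, 71 UMIs), from 0 to 56.2 CPM. The neuron classes overlapped, and their difference did not pass the test (log2 0.33, SE 0.40, adjusted p = 0.699, edgeR), in a pair where 11.5% of all genes differed. Among the other named classes, 1 UMI was found in other immune cells, 1 in astrocytes, 1 in oligodendrocytes, 1 in pericytes or mural cells and 3 in endothelial cells. The drop from excitatory neurons to other immune cells, the next class by mean, was not called either (1.68, SE 1.19, adjusted p = 0.241), with 49.2% of genes differing in the pair and a class level of 11.4 CPM that rested on that 1 UMI. Microglia and oligodendrocyte precursor cells had 0 UMIs. A floor of 3 counts over the libraries of each class lay 22.2-fold and 10.02-fold below the 40.6 CPM pooled over inhibitory neurons. The counting error of the 30 UMIs behind that level was left out.

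The intracellular FGFs led in neurons in each case, and inhibitory and excitatory neurons could not be separated for any of them. Fgf12, at chr16:28160206-28445313 on the minus strand (mm9), encodes an intracellular FGF that binds the tail of sodium channels. It had 125 ± 64.0 CPM in excitatory neurons (n = 10, 277 UMIs) and 124.5 ± 87.3 CPM in inhibitory neurons (n = 8, 109 UMIs). The values ran from 59.4 to 240 CPM and from 21.8 to 269 CPM, and the log2 difference was 0.05 (SE 0.22, adjusted p = 0.928, edgeR). Oligodendrocyte precursor cells also held Fgf12, in 6 of 6 libraries, at 59.1 ± 19.2 CPM. Inhibitory neurons did not exceed them in the test (0.52, SE 0.34, adjusted p = 0.242), in a pair where 33.3% of genes differed. Microglia had 2.82 CPM and endothelial cells 4.78 CPM.

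The neurons of the libraries with few microglia had high Fgf12. In inhibitory neurons the levels were 269, 168 and 202 CPM in mice 9946, 9947 and 9967, against 21.8 to 157 CPM in the other libraries. In excitatory neurons they were 223, 124 and 166 CPM, against 59.4 to 105 CPM, apart from 240 CPM in mouse 9970, which rested on 4 UMIs. These mice belong to 3 different treatment groups. Within excitatory neurons, the pooled Fgf12 level was 64.3 CPM in the larger cluster and 120 CPM in the smaller one. The smaller cluster held 63.0%, 98.7% and 75.8% of the class's UMIs in mice 9946, 9947 and 9967, against 28.3% to 68.1% in the other libraries. The part of this in the Fgf12 levels was not tested. Without them the mean in excitatory neurons was 105.3 CPM.

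Fgf13 encodes an intracellular FGF that has also been linked to microtubules in migrating neurons, and lies on the X chromosome at chrX:56315322-56821248, minus strand (mm9). In inhibitory neurons its level was 67.9 ± 64.4 CPM (n = 8), from 0 to 167 CPM. In excitatory neurons it was 62.7 ± 33.5 CPM (n = 10), with a highest value of 121 CPM in CORT/Sal mouse 9969 and 0 UMIs in mouse 9970. The fit put the difference between the neuron classes at -0.18 (inhibitory over excitatory, SE 0.28, adjusted p = 0.779), against the order of the means. Excitatory neurons exceeded oligodendrocyte precursor cells (16.1 ± 4.22 CPM) by 2.13 (SE 0.40, adjusted p = 2.03e-06, edgeR) in 6 of 6 libraries, and 46.4% of genes differed between these classes. Precursor cells were close to microglia, which had 14.97 ± 9.63 CPM with a UMI in every library. Within excitatory neurons the pooled level was 34.5 CPM in the larger cluster and 110.7 CPM in the smaller one, which held 28.3% to 98.7% of the UMIs of the class in the different libraries.

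Fgf14, at chr14:124377129-125076349 on the minus strand (mm9), encodes the intracellular FGF whose loss is known to cause ataxia. It had 39.6 ± 27.7 CPM in inhibitory neurons (n = 8, 32 UMIs) and 31.2 ± 19.7 CPM in excitatory neurons (n = 10, 101 UMIs), and these did not differ in the test (log2 0.04, SE 0.41, adjusted p = 0.981, edgeR). The next class by mean was astrocytes with 16.6 CPM, a value set by BCD/Sal mouse 9947, where 1 UMI gave 104.9 CPM. The pooled astrocyte level was 6.43 CPM. Excitatory neurons exceeded astrocytes by 1.81 (SE 0.40, adjusted p = 2.45e-05) in 8 of 9 libraries. Oligodendrocytes and pericytes or mural cells had 0 UMIs. The same floor of 3 counts per class lay 14.6-fold and 10.07-fold below the 43.3 CPM pooled over inhibitory neurons. The counting error of the 32 UMIs behind that level was left out.

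Of the 8 genes that entered the class fit, 4 (Fgf1, Fgfr1, Fgfr2 and Fgfr3) were higher in the leading class than in the class next to it. The leading class was picked from these same levels, so the count is a description. In the pairs of these 4, 37.4% to 49.5% of all genes differed in either direction, against 11.5% in the neuron pair of the others. Of the 9279 genes, 1777 were higher in oligodendrocytes than in astrocytes. Likewise, 1655 were higher in astrocytes than in oligodendrocyte precursor cells. Fgf1, Fgfr1, Fgfr2 and Fgfr3 kept their call under each alternative fit of the main clustering and with each library left out. The class fit was not rerun under other barcode limits or cluster resolutions. The 4 others (Fgf9, Fgf12, Fgf13 and Fgf14) led in a neuron class that did not differ from the other neuron class beyond its spread.

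For each gene, the genes with the most similar profile were ranked by Pearson correlation of log2(CPM + 10) over 68 pairs of library and class, among the genes that reached 50 CPM in a class. The points share libraries, depth and cell composition, so the values are a description. Fgfr3 was most like Entpd2 (r = 0.94), Slc7a10 (0.93) and Ntsr2 (0.93), and Fgfr1 most like Adora2b (0.80), AI464131 (0.78) and Slc6a11 (0.78). Ntsr2 was also on the list of astrocyte markers, and Slc6a11 encodes a GABA transporter of astrocytes. Fgfr2 was most like Il33 (0.93), Olfml1 (0.91) and Nkx6-2 (0.89), and Fgf1 most like Efhd1 (0.81), Nkx6-2 (0.80) and Csrp1 (0.79). Nkx6-2, which encodes a transcription factor of myelinating cells, was the gene these lists shared. The neuronal members had Trhde, Efna3 and Nrip3 (Fgf9, 0.83 to 0.82), Pkia, Podxl2 and Dbn1 (Fgf12, 0.87 to 0.86), Tceal5 and Nap1l2 (Fgf13, 0.79 and 0.76) and Ina, Dlg3 and Atp2b2 (Fgf14, 0.82 to 0.79). Ina encodes a neuronal intermediate filament. Fgf2 had the weakest likeness, with Mmp14 (0.62), Nectin3 (0.62) and Gm13111 (0.58).

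The study compared cell-to-cell signalling inferred from ligand and receptor RNA between corticosterone and control mice, and asked whether ketamine reversed the differences. For the FGF pathway it reported a predicted rise after corticosterone, and a reversal of that rise after ketamine. At the level of these genes' RNA, no change passed the test in the classes where they could be tested. Each treatment was fitted with the other as a term over all libraries of a class, in 8 classes. The corticosterone term thus draws on saline and ketamine mice, and an effect that ketamine reverses would be diluted in it. In astrocytes it rested on 1 CORT/Sal and 3 CORT/Ket libraries. Of the 9 genes, 7 passed the filter on low counts in at least 1 class. These classes were astrocytes, oligodendrocytes, their precursor cells and both neuron classes. In inhibitory neurons only Fgf12 passed the filter. Fgf9, Fgf13 and Fgf14 were therefore not tested for treatment in their leading class. No FGF gene was tested in endothelial cells, microglia or pericytes or mural cells. Of 12 gene and class pairs, edgeR called 0 for corticosterone and 0 for ketamine, and 0 had an unadjusted p under 0.05 for either treatment. DESeq2 also called 0 and found 0 with an unadjusted p under 0.05. The lowest adjusted p was 0.819 for corticosterone and 0.999 for ketamine. For comparison, edgeR called 19 of 34996 tests over all genes and classes for corticosterone and 1 for ketamine. By class, corticosterone changed 0.0135% of genes in astrocytes, 0.194% in endothelial cells, 0.038% in oligodendrocytes and 0.238% in pericytes or mural cells, ketamine changed 0.0397% in pericytes or mural cells, and the share was 0% in all other pairs of class and treatment. The FGF genes' count of 0 was thus near the background.

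Fgfr3 in astrocytes was 727 CPM (218 UMIs) and 1258 CPM (12 UMIs) in BCD/Sal mice 9901 and 9947, and 896, 788 and 695 CPM in BCD/Ket mice 9946, 9949 and 9986. It was 906 CPM in CORT/Sal mouse 9969, and 817, 1037 and 995 CPM in CORT/Ket mice 9967, 9968 and 9971. The corticosterone mice lay inside the range of the vehicle mice, and the highest value came from the shallowest astrocyte pool, 9536 UMIs. Without mice 9946, 9947 and 9967, the vehicle values were 695 to 788 CPM and the corticosterone values 906 to 1037 CPM. The fitted log2 difference for corticosterone without these mice was 0.37 and was not called. That choice of libraries was made after the data were seen. The shallower astrocyte cluster had 1035 ± 182 CPM of Fgfr3 and the deeper one 813 ± 142 CPM. It held 89.2%, 84.2% and 89.3% of the astrocyte UMIs in mice 9946, 9947 and 9967, against 13.8% to 33.8% in the other libraries with astrocytes. The part of this in the Fgfr3 levels was not tested. The fitted log2 difference was 0.38 for corticosterone (95% interval -0.64 to 1.40, adjusted p = 1.00) and -0.01 for ketamine (-1.10 to 1.08, adjusted p = 1.00). These intervals cover changes of 0.642 to 2.65-fold and of 0.465 to 2.12-fold, so the fit does not exclude a change within them. They rest on a spread that the fit partly shares across genes, and do not measure the spread of the Fgfr3 values listed above. The intervals are not limits of detection.

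Fgfr1 in astrocytes had 294 and 419 CPM in BCD/Sal mice 9901 and 9947, 224, 288 and 309 CPM in BCD/Ket mice 9946, 9949 and 9986, 327 CPM in CORT/Sal mouse 9969, and 245, 301 and 319 CPM in CORT/Ket mice 9967, 9968 and 9971. The 4 groups overlapped. Its log2 difference was 0.12 for corticosterone (95% interval -0.76 to 1.01) and -0.10 for ketamine (-1.05 to 0.84). Fgfr2 in oligodendrocytes had 434 and 510 CPM in BCD/Sal mice 9901 and 9947, 454, 389 and 340 CPM in BCD/Ket mice 9946, 9949 and 9986, 305 CPM in CORT/Sal mouse 9969, and 409 and 327 CPM in CORT/Ket mice 9968 and 9971. The lowest and highest values came from a CORT/Sal and a BCD/Sal mouse, and the CORT/Ket values lay between them. The log2 difference was -0.27 for corticosterone (95% interval -0.81 to 0.27, adjusted p = 0.819) and -0.07 for ketamine (-0.63 to 0.49). This was the narrowest pair of intervals among the genes tested.

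**Figure D2:**
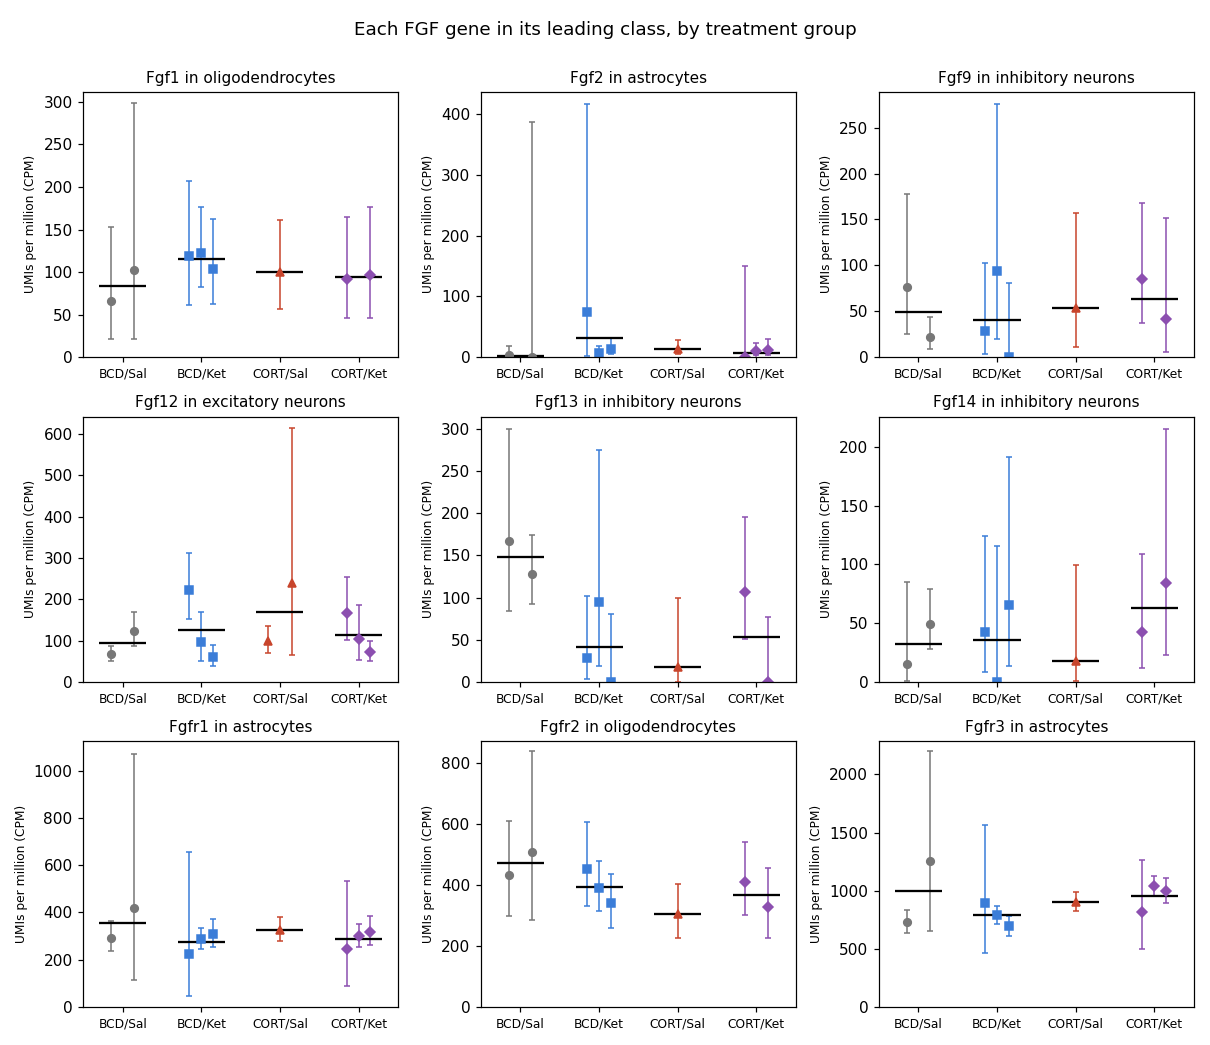
CPM (linear axes from 0) of each FGF gene in its leading class by treatment group, with a point for each library, bars for the 95% Poisson interval of its UMI count and a black line for the group mean. For Fgfr3 in astrocytes, the BCD/Sal libraries at 727 and 1258 CPM span all those of the other groups but 1, the BCD/Ket library at 695 CPM.

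Fgf1 in astrocytes was 36.7 and 0 CPM in BCD/Sal mice 9901 and 9947, 0, 64.2 and 33.1 CPM in BCD/Ket mice 9946, 9949 and 9986, 67.4 CPM in CORT/Sal mouse 9969, and 40.8, 58.6 and 55.6 CPM in CORT/Ket mice 9967, 9968 and 9971. The zeros came from astrocyte pools of 27 and 14 cells in mice 9946 and 9947. Most of these cells lay in the shallower astrocyte cluster, which had 28.7 ± 27.3 CPM of Fgf1, against 55.6 ± 16.1 CPM in the deeper one. The part of this in the Fgf1 levels was not tested. The log2 difference was 0.39 for corticosterone (95% interval -0.30 to 1.08) and 0.03 for ketamine (-0.71 to 0.77). In oligodendrocytes, where the values were given above, it was -0.11 (-0.84 to 0.62) and 0.23 (-0.56 to 1.03).

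Fgf13 in excitatory neurons had the smallest unadjusted p of the 24 tests, for ketamine. Its level was 63.4 and 104 CPM in BCD/Sal mice 9901 and 9947, and 121 and 0 CPM in CORT/Sal mice 9969 and 9970, the last from a pool of 16690 UMIs. It was 67.5, 56.2 and 38.7 CPM in BCD/Ket mice 9946, 9949 and 9986, and 55.3, 47.6 and 73.4 CPM in CORT/Ket mice 9967, 9968 and 9971. Saline and ketamine mice overlapped, with or without mouse 9970. The log2 difference for ketamine was -0.67 (SE 0.36, unadjusted p = 0.0738 and adjusted p = 1.00 by edgeR), and without mouse 9970 it was -0.79. The share of the class's UMIs from the cluster with more Fgf13 was 28.3% to 98.7% in saline mice and 28.8% to 75.8% in ketamine mice, and its part in this difference was not tested. In inhibitory neurons, Fgf13 was 128 and 167 CPM in the BCD/Sal mice (53 UMIs in all) and 17.9 CPM in 1 CORT/Sal mouse (1 UMI). It ran from 0 to 94.2 CPM in BCD/Ket mice (5 UMIs) and from 0 to 107 CPM in CORT/Ket mice (10 UMIs). Fgf13 did not pass the filter in that class, so its levels there were not tested for treatment. Fgf12 in excitatory neurons differed by 0.02 (95% interval -0.75 to 0.78) for corticosterone and by 0.18 (-0.59 to 0.95) for ketamine.

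Over the 12 pairs, 9 estimates for corticosterone and 7 for ketamine were above 0, with a median log2 difference of 0.10 for each. The median over all genes of a class lay between -0.04 and 0.04 for corticosterone and between -0.02 and 0.05 for ketamine. In astrocytes, the 4 FGF genes tested had a median corticosterone estimate of 0.33, against 0.04 over all genes of that class. None of the 4 was called. The widest intervals belonged to Fgf12 in oligodendrocyte precursor cells and in inhibitory neurons, where the ketamine estimates of 0.74 and 0.52 had intervals of -0.69 to 2.18 and -0.81 to 1.85. Fgf2 and Fgf9 passed the filter in no class of these fits and were not tested for treatment.

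**Figure D3:**
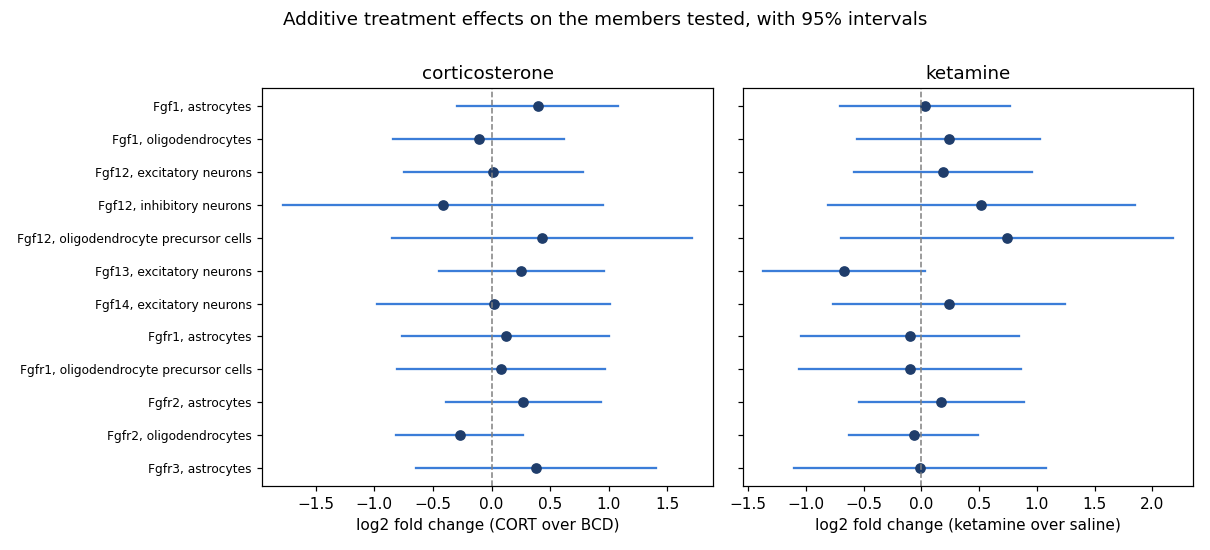
Log2 fold change with its 95% interval (1.96 standard errors on either side) for corticosterone over BCD and for ketamine over saline, for each of the 12 gene and class pairs tested. Every interval covers 0, from the narrowest, Fgfr2 in oligodendrocytes (-0.81 to 0.27 for corticosterone), to the widest, Fgf12 in oligodendrocyte precursor cells (-0.69 to 2.18 for ketamine).

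The contrasts that the study's design names, CORT/Sal against BCD/Sal and CORT/Ket against CORT/Sal, need 2 CORT/Sal libraries. Excitatory neurons had them and held FGF genes that passed the filter. Astrocytes had 1 CORT/Sal library, so these contrasts were not tested there. The excitatory pool of CORT/Sal mouse 9970 was small, at 16690 UMIs. It had 0 UMIs of Fgf9, Fgf13, Fgf14 and Fgfr1 and few of Fgf12. Both contrasts thus rested almost wholly on mouse 9969 for the CORT/Sal group, which limits what they could find. In excitatory neurons, 5 genes were tested (Fgf9, Fgf12, Fgf13, Fgf14 and Fgfr1), and edgeR called 0 in either contrast, with 0 at an unadjusted p under 0.05 and a lowest adjusted p of 0.99. DESeq2 called 0 as well. The share of all 6676 genes called was 0% in each. The difference between the ketamine effects with and without corticosterone was called for 0 of the 5 genes. Fgfr1 had the largest estimate, at -1.83 for CORT/Sal against BCD/Sal (SE 1.10, unadjusted p = 0.107). Its levels were 46.4 and 13.0 CPM in BCD/Sal mice 9901 and 9947, 9.89 and 0 CPM in CORT/Sal mice 9969 and 9970, 20.3, 40.1 and 51.6 CPM in BCD/Ket mice 9946, 9949 and 9986, and 0, 0 and 25.8 CPM in CORT/Ket mice 9967, 9968 and 9971. The larger excitatory cluster held 46.4 CPM of Fgfr1 and the smaller one 13.3 CPM, and the smaller one made up 11.6% and 94.7% of the excitatory cells of the BCD/Sal mice and 41.0% and 61.9% of those of the CORT/Sal mice. The part of this in the Fgfr1 levels was not tested.

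The other genes of the pathway, 74 in all, were placed beside these levels by class. Of the 15 other secreted FGFs, 1 reached a mean of 10 CPM in any class, Fgf22 in inhibitory neurons (19.1 ± 20.1 CPM, 11 UMIs). Among the other family members, Fgfrl1, a receptor without a kinase domain, had 130 ± 55.0 CPM in oligodendrocyte precursor cells, and the intracellular Fgf11 had 47.4 ± 20.1 CPM there. Fgfr4 had 1 UMI in all classes together. Co-receptors and binding partners reached 10 CPM for 6 of 9 genes, 3 of them led by oligodendrocyte precursor cells, while the klotho genes Kl and Klb stayed at or under 7.11 CPM. Cdh2, the N-cadherin that can associate with Fgfr1, led in astrocytes with 237 ± 46.4 CPM.

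Proteoglycan cores and heparan sulfate enzymes reached 10 CPM for 18 of 19 genes, and oligodendrocyte precursor cells led in 7 of these. Glypican Gpc5 was highest in astrocytes (339 ± 95.4 CPM), as was syndecan Sdc4 (322 ± 52.9 CPM). The sulfatase Sulf2, which trims heparan sulfate, was highest in oligodendrocyte precursor cells (723.5 ± 97.4 CPM, n = 6). Feedback and target genes reached 10 CPM for 11 of 12, and were spread over 6 classes. Spry2 led in astrocytes (89.9 ± 42.6 CPM), Spry1, Etv4 and Etv5 in oligodendrocyte precursor cells (131, 117 and 113 CPM) and Etv1 in oligodendrocytes (355 ± 80.6 CPM). All 8 sodium channel genes reached 10 CPM and led in neurons, 6 in inhibitory and 2 in excitatory neurons, the classes in which Fgf12, Fgf13 and Fgf14 led. Scn2a had 779 ± 199 CPM in inhibitory neurons, and Scn8a had 481 ± 132 CPM in excitatory neurons. The 8 adaptors and effectors were spread over 5 leading classes.

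**Figure D4:**
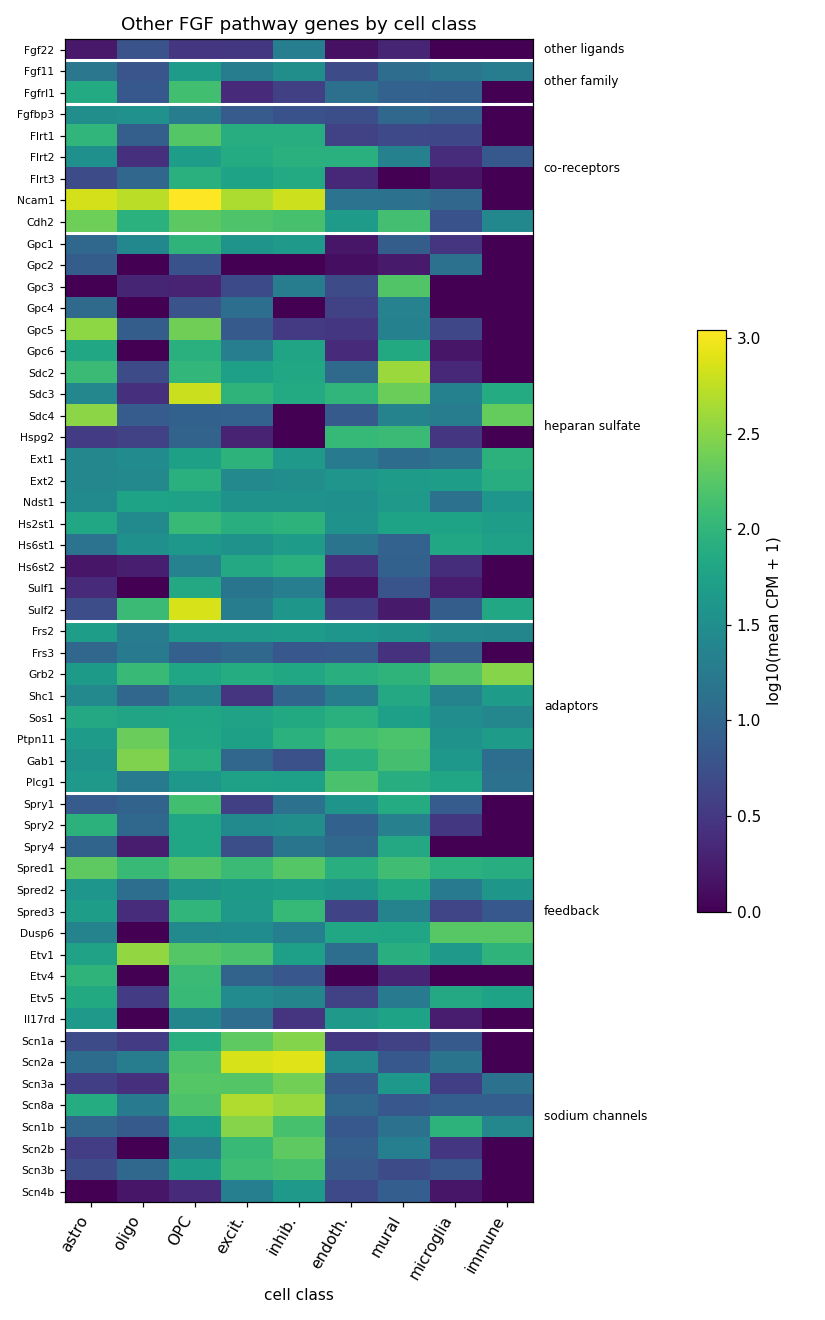
Mean level, as log10(mean CPM + 1), of the pathway genes outside the 9 FGF genes that reached 10 CPM in a class, by cell class and grouped by list. Sodium channel genes are brightest in the neuron columns, and Ncam1, Sdc3 and Sulf2 (1103, 631 and 723.5 CPM) in oligodendrocyte precursor cells.

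Treatment changed none of these pathway genes by the test. In 148 tests per treatment over 47 genes, edgeR called 0 for corticosterone and 0 for ketamine. At an unadjusted p under 0.05 there were 7 tests for corticosterone and 1 for ketamine, and the lowest adjusted p was 0.562 and 0.999. Over all genes and classes, 1281 and 496 of 34996 tests had an unadjusted p under 0.05, so these counts are near the background. The median log2 difference was -0.05 for corticosterone and 0.01 for ketamine, inside or near the range of the class medians over all genes.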

How the data were processed

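Single-cell suspensions of the BLA were profiled by 10x Chromium droplet sequencing. The authors ran Cell Ranger (version 3.0.2 in the matrix headers, genome mm9 per the labels and methods) and deposited UMI counts per gene and barcode. The annotation and strand setting behind the counts are not given in the sources used here. Whether reads of overlapping genes entered the counts was not tested. Their own clustering used Seurat 3.1.1. Per library, the depth was 811628 to 7281768 UMIs over all barcodes, and 287013 to 3680877 UMIs over the barcodes kept. The depth of the kept barcodes limits the precision of low genes. Poisson intervals and floors of 3 counts cover counting error only.

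From the deposited counts, barcodes with at most 12.5% mitochondrial UMIs and at least 200 genes were clustered with scanpy 1.11.5 (2000 variable genes, 30 components, 20 neighbours, Leiden resolution 0.8), leaving out the FGF and pathway genes. Clusters were named from fixed marker lists by at least 3 markers among their leading genes; the rule for leading genes and the scaling were set after clusters were seen. Clusters of 1 library, or with markers of other types, stayed unnamed. Doublets were kept, and an alternative without the 216 highest Scrublet scores was run. Counts were summed per library and class (at least 10 cells). edgeR 4.0.16 (R 4.3.3) quasi-likelihood tests with TMM factors, filterByExpr and Benjamini-Hochberg adjustment over all genes of a fit compared classes (library as a term) and treatments (corticosterone and ketamine as additive terms; 4-group contrasts where each group had 2 libraries). DESeq2 1.42.0 served as an alternative, and each library was left out in turn. Scripts were tested on simulated counts. All 9 FGF genes are named; pathway genes outside them are named as examples, some chosen after their values were seen, and each gene's 3 most similar genes are given by rule, except 1 that is not reported here. The members and lists were chosen with earlier results of these data known. Replicates are separate mice. Coordinates come from GENCODE M1 on the mm9 assembly (NCBIM37).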

Additional observations from a re-analysis of the deposited data

Results flagged for a closer look

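FGF genes were also counted in clusters that stayed unnamed and entered no comparison, at levels above the limit that a count of 0 allows. The cluster of CORT/Sal mouse 9970 (2338 barcodes) held all 9 genes: 155.7 CPM of Fgfr3, 102.4 of Fgf13, 86.9 of Fgfr1, 42.9 of Fgf12, 30.9 of Fgfr2, 18.03 of Fgf9, 17.2 of Fgf1, 12.6 of Fgf14 and 4.64 of Fgf2, where 3 counts correspond to 0.819 CPM. It therefore held receptors that led in glia next to intracellular FGFs that led in neurons, in a library with no control or replicate of its kind.

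A small cluster of 94 barcodes from several libraries, with markers of ependymal and of choroid plexus cells among its leading genes, held 216.7 CPM of Fgfr1, 74.3 of Fgfr3, 61.9 of Fgfr2, 18.6 of Fgf1 and 15.5 of Fgf2, where 3 counts correspond to 9.29 CPM. Fgf12 had 0 UMIs there. Fgfr1 was present in each of the 4 libraries with at least 10 of these cells, from 188 to 273 CPM.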

How the results depend on the processing

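The calls did not depend on the settings tried, but the class order was refitted on the main clustering only. The 4 genes higher in their leading class (Fgf1, Fgfr1, Fgfr2 and Fgfr3) were called under RLE factors, no filter, DESeq2, no library term, at least 30 cells and without the 3 libraries with few microglia, an alternative chosen after seeing the data, and with each library left out (log2 0.80 to 1.01, 1.52 to 1.80, 1.89 to 2.09 and 4.35 to 4.67). No treatment effect or group contrast on a member was called under any alternative; over 510 alternative values of the 24 treatment effects the lowest adjusted p was 0.575. Of the leading class levels, 1 moved by more than the SD, Fgf1 in oligodendrocytes, to 81.9 CPM at a mitochondrial limit of 25%. Moves of over 1.5 times within wide SDs were those of Fgf13 in inhibitory neurons, from 67.9 to 108.1 CPM with at least 30 cells and 43.3 CPM at resolution 0.4, of Fgf9 there, from 50.1 to 24.35 CPM at resolution 0.4, and of Fgf2 in astrocytes, from 14.9 to 8.675 CPM with at least 500 genes, 8.49 CPM with at least 30 cells, 9.90 CPM without the 3 libraries and 7.43 CPM without mouse 9946. Over all genes, the corticosterone calls varied from 19 to 43 without a filter, 7 with DESeq2, 47 in the 4-group fit, 10 at a mitochondrial limit of 5%, 12 with at least 30 cells and 5 to 67 with a library left out, and the single ketamine call became 10 without a filter, 0 at either mitochondrial limit, 2 with at least 500 genes, 3 in the 4-group fit, 8 without the 3 libraries and 6 with the microglia split as a term, or 0 to 2 with a library left out. Without a filter, 134 member tests gave an unadjusted p under 0.05 in 2 cases for corticosterone and 1 for ketamine. With at least 500 genes, 26 member tests also gave 2 and 1. For corticosterone, 1 such case arose in the 4-group fit, at the 25% limit and at resolution 0.4. The same count of 1 was found without the 3 libraries and with the microglia split as a term. With a library left out, each treatment had 0 to 1. At a mitochondrial limit of 5% no inhibitory class was left, and at resolution 0.4 excitatory neurons shared a cluster named inhibitory, so these gave no value there.

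Signs that changed belonged to values that were not called, and the cause was not tested. For the leading class against the next, they were Fgf9 with at least 30 cells (-0.30), Fgf12 with RLE factors, no library term and at least 30 cells (-0.18, -0.14 and -0.12), Fgf13 with RLE factors and at least 30 cells (0.10 and 0.26), and Fgf14 with DESeq2 and without the 3 libraries (-0.080 and -0.28). For ketamine in astrocytes, Fgfr3 had 0.019 with DESeq2, 0.094 with at least 500 genes, 0.0065 with at least 30 cells, 0.089 without the 3 libraries and 0.030 with the split as a term, Fgfr1 had 0.055 at the 5% limit, and Fgf1 had -0.051 with at least 500 genes, -0.015 without Scrublet doublets and -0.0068 with at least 30 cells. For corticosterone in excitatory neurons, the 5% and 25% limits gave Fgf13 -0.69 and -0.0040 and Fgf12 -0.40 and -0.39, Fgf12 also had -0.00013 without a filter, -0.12 with at least 500 genes, -0.17 without Scrublet doublets and -0.031 at resolution 1.2, and Fgf14 had -0.034 in the 4-group fit, -0.31 at the 25% limit and -0.19 without the 3 libraries. For ketamine there, without the 3 libraries, Fgf14 had -0.39 and Fgf12 -0.15. In oligodendrocyte precursor cells, Fgfr1 had -0.20 in the 4-group fit, -0.19 at the 25% limit, -0.052 without Scrublet doublets and -0.038 at resolution 0.4 for corticosterone, and 0.040 at the 25% limit for ketamine. In oligodendrocytes, Fgf1 had 0.067 in the 4-group fit and 0.040 with at least 30 cells for corticosterone, and Fgfr2 had 0.054 without a filter, 0.027 in the 4-group fit and 0.018 without the 3 libraries for ketamine. With DESeq2, Fgf9 in excitatory neurons had 0.11 for CORT/Ket against CORT/Sal and 0.11 for the difference of the ketamine effects.

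With each library left out in turn, the class differences ranged from -0.014 to 0.84 for Fgf9, -0.021 to 0.25 for Fgf12, -0.48 to 0.047 for Fgf13 and -0.15 to 0.22 for Fgf14. Ketamine effects ranged in astrocytes from -0.079 to 0.10 for Fgfr3, -0.13 to 0.78 for Fgfr2, -0.17 to 0.061 for Fgfr1 and -0.26 to 0.59 for Fgf1, in excitatory neurons from -0.19 to 0.37 for Fgf12, in precursor cells from -0.19 to 0.12 for Fgfr1, and in oligodendrocytes from -0.29 to 0.049 for Fgfr2 and -0.024 to 0.54 for Fgf1. Corticosterone effects ranged from -0.23 to 0.21 for Fgf14 and -0.20 to 0.42 for Fgf12 in excitatory neurons, and from -0.23 to 0.16 for Fgfr1 in precursor cells. In excitatory neurons, CORT/Ket against CORT/Sal ranged from -0.41 to 0.25 for Fgf12, and the difference of the ketamine effects from -0.22 to 0.29 for Fgf13 and -0.85 to 0.36 for Fgf12.

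Depth limited Fgf2, with 27 UMIs in astrocytes, and the libraries with few cells of a class. No paired analysis was possible because each mouse gave 1 BLA library to a single treatment group, so the groups share no mouse number.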
